A study of Homo sapiens with 6 samples.

Results

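The genes described here encode the regulators of mitochondrial biogenesis and the core proteins of mitochondrial fusion and fission. They are 10 genes of the 58299 in the count table, chosen by symbol: the PGC-1 coactivator genes PPARGC1A, PPARGC1B and PPRC1, the transcription factor gene NRF1, the mitochondrial DNA-binding factor gene TFAM, the fusion genes MFN1, MFN2 and OPA1, and the fission genes DNM1L and FIS1. Each symbol matched 1 Ensembl gene in the table. RNA came from AC16 cells, a human line made by fusing adult ventricular heart cells with transformed fibroblasts. The treated group, 3 libraries, had 100 nM CDDO-Me for 24 h and then 100 nM doxorubicin for 48 h, and the DMSO group, also 3 libraries, had 0.1% DMSO for the same 72 h. CDDO-Me is a triterpenoid that releases the transcription factor NRF2 from KEAP1, and doxorubicin, an anthracycline used against cancer and known to injure the heart, breaks DNA through topoisomerase II. Cells given either drug alone were not analysed here, so the part of each drug cannot be told apart.

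PGC-1 coactivators bind transcription factors such as nuclear respiratory factor 1, the estrogen-related receptors and the ETS factor GABP, and raise the output of nuclear genes for respiration and for mitochondrial DNA upkeep. TFAM, a target of this programme, packages mitochondrial DNA and starts its transcription. Mitofusins join outer membranes and OPA1 joins inner membranes, while DNM1L, a dynamin-like GTPase that is recruited from the cytosol, cuts mitochondria; in heart muscle, loss of either activity is known to impair function. NRF1 here is nuclear respiratory factor 1 and not NFE2L1, which has also carried that name. The NRF2 of the series' title is NFE2L2, and not GABP, which is also called nuclear respiratory factor 2.

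Depth was 17150259 to 20193957 counts per library. Nothing in the labels says that the replicates were separate cultures: the spread that p-values here rest on is that between libraries and may be technical. Heart muscle markers were nearly absent: of 16, TNNI3 had 0 counts in every library and 13 did not reach the minimum count, while GATA4, TTN and NPPB did, NPPB only through the DMSO group. By the test described below, 1 of these 3 was higher and 2 were lower. The 16 markers' summed level was 15.05 to 22.24 TPM in treated and 21.95 to 26.59 TPM in DMSO libraries. For 12 fibroblast markers it was 5918 to 6116 TPM and 10589.9 to 11496 TPM. Of these 12, 11 were called lower in treated cells, beside 31.2% of all tested genes. For 6 endothelial markers the sums were 10.4 to 11.1 TPM in treated and 18.9 to 21.2 TPM in DMSO libraries. That sum follows TEK, at 6.53 TPM in treated and 18.4 TPM in DMSO cells; of the 5 tested, TEK fell, KDR, PECAM1 and CLDN5 rose, and VWF was not called. PECAM1, CLDN5 and VWF reached the filter's minimum count in every library of the treated group only. For CLDN5 (8, 2 and 6 DMSO counts) and PECAM1 (2, 3 and 15), being tested already required more treated than DMSO libraries at that minimum. For VWF (22, 8 and 14 DMSO counts) it did not. For 6 leukocyte markers the sums were 4.76 to 5.81 TPM in treated and 0.866 to 1.84 TPM in DMSO libraries. Of these, PTPRC passed the filter in both groups, with 238 counts in treated and 58 in DMSO libraries, LYZ, ITGAM and CD68 passed only through the treated group, and the T cell gene CD3E had 1 count over all libraries. The part of these shifts in the changes below was not tested, and in bulk RNA fewer cells of a type and less RNA per cell cannot be told apart. Genes of the mitochondrial chromosome in the table number 0, so the transcripts that TFAM acts on were not analysed here.

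The set did not move in 1 direction. Of the 10 genes, 3 rose with treatment (PPARGC1A, TFAM and MFN2), 6 fell (PPRC1, NRF1, MFN1, OPA1, DNM1L and FIS1) and PPARGC1B was not called. All 10 passed the filter on low counts; PPARGC1A did so only through the treated group, so its being tested already required a difference. The test was edgeR's quasi-likelihood test, fitted on the whole table, with a Benjamini-Hochberg adjusted p below 0.05 over the 15575 genes tested. By this rule 63.5% of all tested genes were called, 32.3% higher and 31.2% lower, so 9 calls among 10 genes are to be read against a background in which most genes moved. The groups did not overlap for 9 of the 10, against 66.7% of all tested genes. The median log2 change of the 10 was -0.41, beside 0.02 over all tested genes. Only PPARGC1A changed at least 2-fold, a size that 15.5% of tested genes passed. Tested against a 1.5-fold change (glmTreat), PPARGC1A, MFN1 and NRF1 were called, with adjusted p of 2.06e-05, 2.66e-04 and 0.0329, where 19.2% of all genes were. Levels below are CPM, counts scaled by library size and TMM factor, and log2 changes are treated minus DMSO with their standard error (SE). Positions are on GRCh38.

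**Figure D1:**
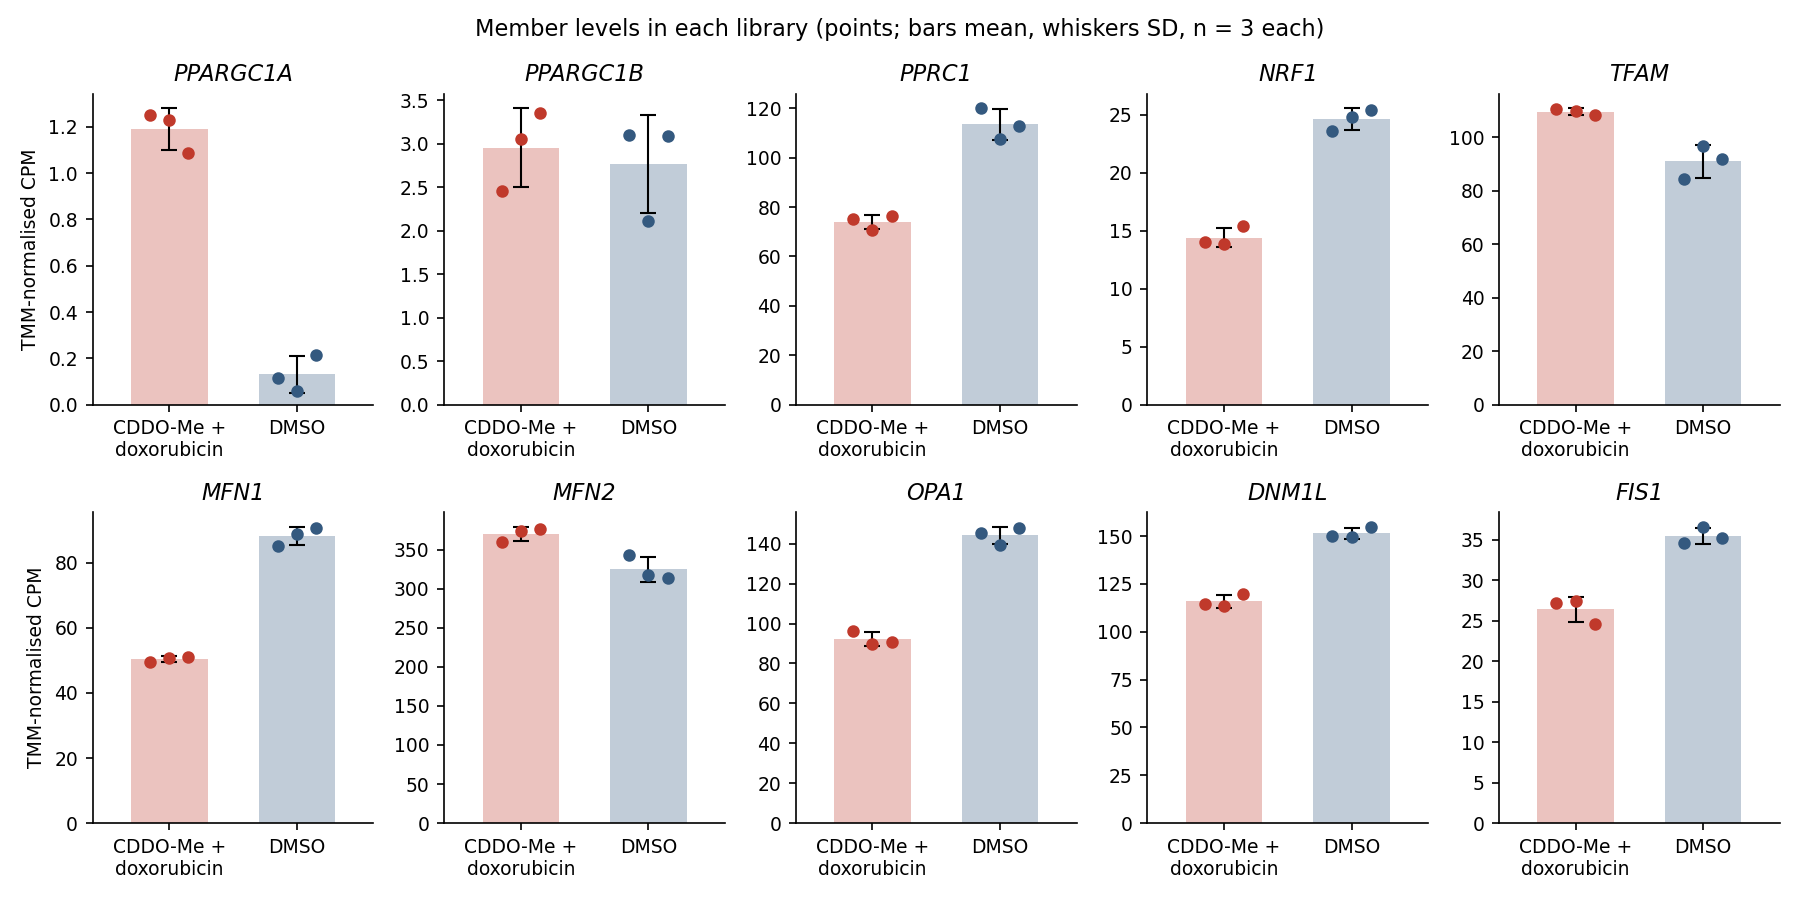
Each panel shows 1 gene, with TMM-normalised CPM on a linear axis from 0, 3 treated libraries (red) left of 3 DMSO libraries (blue); bars are means and whiskers SD. Groups are separate in every panel except PPARGC1B, where treated libraries span 2.46 to 3.35 CPM and DMSO libraries 2.12 to 3.10 CPM.

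The PGC-1 family gave 1 rise, 1 fall and 1 gene without a call. PPARGC1A (ENSG00000109819, chr4:23755041-23904089, minus strand) encodes PGC-1α, the family's founding and stress-inducible member, which is abundant in intact heart and muscle. It had 26, 25 and 23 counts in the treated libraries, against 2, 1 and 4 counts in the DMSO libraries. Every treated library thus stood above every DMSO library, with few counts in both groups. Scaled for depth, the summed counts of 74 and 7 gave a ratio of 8.90 with an exact 95% binomial interval of 4.11 to 22.9, which covers counting error only. The fitted log2 change was 3.10 (SE 0.53, edgeR adjusted p = 8.70e-07), at percentile 97.8 of the sizes of change of all tested genes. As PPARGC1A passed the filter only through its treated counts, this p-value and percentile are not separate support for the rise. Even so, the mean treated level was 0.49 ± 0.034 TPM, per exon length, against 0.0514 ± 0.0314 TPM in DMSO cells (SD, n = 3 each).

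PPARGC1B (ENSG00000155846, chr5:149730298-149855022, plus strand) encodes PGC-1β, the paralogue that also serves basal respiratory gene expression. It had 2.46, 3.05 and 3.35 CPM in the treated libraries, against 3.10, 2.12 and 3.09 CPM in the DMSO libraries. The ranges overlapped, with 1 low library in each group. Its log2 change was 0.09 (SE 0.22) with a 95% interval of -0.36 to 0.54, and it was not called (edgeR adjusted p = 0.749). A change of either sign within that interval thus remains possible, with 184 counts in the treated and 146 in the DMSO group.

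PPRC1 (ENSG00000148840, chr10:102132994-102150331, plus strand) encodes PRC, the family member known from serum-stimulated, dividing cells. It stood at 75.1, 70.8 and 76.3 CPM in the treated libraries, against 120.0, 108 and 113 CPM in the DMSO libraries. All treated libraries lay below all DMSO libraries, and the log2 change was -0.62 (SE 0.056, edgeR adjusted p = 3.71e-15), or -34.7%. Per exon length PPRC1 made up 97.3% ± 0.26 of the family's summed TPM in treated and 98.8% ± 0.22 in DMSO cells (SD, n = 3 each). In both groups PPARGC1A and PPARGC1B were thus a small share of the family's RNA.

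NRF1 (ENSG00000106459, chr7:129611714-129757082, plus strand) encodes nuclear respiratory factor 1, which binds GC-rich sites in promoters of respiratory chain, import and mitochondrial DNA genes. It had 14.0, 13.8 and 15.4 CPM in the treated libraries, against 23.6, 24.8 and 25.4 CPM in the DMSO libraries. The groups did not overlap. Its log2 change was -0.77 (SE 0.093, edgeR adjusted p = 7.76e-11).

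TFAM (ENSG00000108064, chr10:58385022-58399221, plus strand) stood at 111, 109.8 and 108 CPM in the treated libraries, against 84.3, 96.7 and 91.9 CPM in the DMSO libraries. Treated libraries were all above the DMSO libraries, with DMSO replicate 1 the lowest of the 6. The rise was small, a log2 change of 0.27 (SE 0.055, edgeR adjusted p = 2.26e-05), at percentile 37.8 of sizes of change. TFAM and NRF1 thus moved in opposite directions: their TPM ratio was 5.80, 5.84 and 5.17 in the treated libraries and 2.63, 2.86 and 2.66 in the DMSO libraries. The table lists the pseudogenes TFAMP1 and TFAMP2 with 1 and 0 counts over all libraries, so few reads were assigned to these copies.

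**Figure D2:**
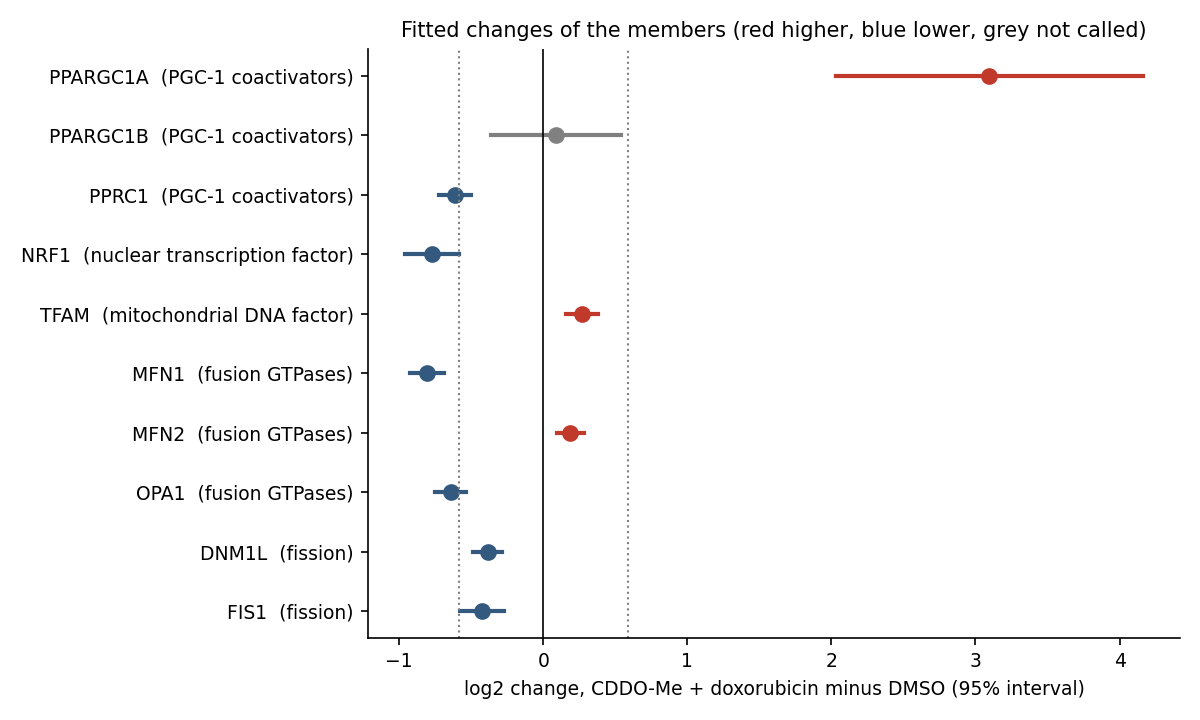
Points are fitted log2 changes (CDDO-Me and doxorubicin minus DMSO) and lines their 95% intervals; dotted lines mark a 1.5-fold change either way. The interval of PPARGC1A, 2.03 to 4.16, lies above all others, and those of TFAM and MFN2 lie above 0 but within 1.5-fold.

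Among the fusion genes, the outer-membrane pair moved apart. MFN1 (ENSG00000171109, chr3:179347692-179394931, plus strand) encodes mitofusin 1, which tethers and fuses outer membranes. It had 49.4, 50.8 and 51.0 CPM in the treated libraries, against 85.1, 88.7 and 90.7 CPM in the DMSO libraries. No treated library came near the DMSO range. The log2 change was -0.81 (SE 0.059, edgeR adjusted p = 4.93e-19), the largest fall among the 10 genes. A pseudogene, MFN1P1, had 1 count over all libraries.

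MFN2 (ENSG00000116688, chr1:11980181-12013514, plus strand) encodes mitofusin 2, which also ties mitochondria to the endoplasmic reticulum. It stood at 359.8, 374 and 376 CPM in the treated libraries, against 343, 318 and 313 CPM in the DMSO libraries. The lowest treated library exceeded the highest DMSO library by a narrow margin, and DMSO replicate 1 was above the other DMSO libraries. The log2 change was 0.19 (SE 0.047, edgeR adjusted p = 3.68e-04), the smallest change called in the set, at percentile 27.2 of sizes. Per exon length, the ratio of MFN2 to MFN1 was 8.72, 8.82 and 8.85 in the treated libraries and 4.84, 4.30 and 4.14 in the DMSO libraries. MFN2 supplied 89.8% ± 0.071 of mitofusin TPM in treated and 81.5% ± 1.21 in DMSO cells (SD, n = 3 each).

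OPA1 (ENSG00000198836, chr3:193593144-193697823, plus strand) encodes the inner-membrane fusion GTPase that also holds cristae together. It had 96.4, 89.8 and 90.6 CPM in the treated libraries, against 145, 139 and 148 CPM in the DMSO libraries. The groups were well apart, with a log2 change of -0.64 (SE 0.052, edgeR adjusted p = 5.30e-17). OPA1 makes long and short proteins by splicing and cleavage; GENCODE v29 lists 33 transcripts for the gene, and a count per gene does not separate them. Its exons share 2.30% of their bases with OPA1-AS1 on the opposite strand, and the libraries carry no strand.

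The promoters of the 2 mitofusin genes, which moved in opposite directions, and of TFAM, a known NRF1 target, and OPA1 are shown for comparison. Windows run from 250 bases before to 50 bases after a RefSeq start (GRCh38.p14), 5′ to 3′ on the gene's strand, and capitals mark motif matches on either strand. The RefSeq starts lie 17 bases (MFN1), 64 bases (OPA1), 263 bases (MFN2) and 388 bases (TFAM) downstream of the gene start in the count table.
MFN2 promoter window, chr1:11980194-11980493, plus strand: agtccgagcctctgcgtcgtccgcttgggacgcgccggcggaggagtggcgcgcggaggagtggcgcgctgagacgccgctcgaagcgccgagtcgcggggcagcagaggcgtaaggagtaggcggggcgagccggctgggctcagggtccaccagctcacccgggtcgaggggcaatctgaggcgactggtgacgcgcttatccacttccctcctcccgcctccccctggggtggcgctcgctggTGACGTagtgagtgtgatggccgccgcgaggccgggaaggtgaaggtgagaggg
MFN1 promoter window, chr3:179347459-179347758, plus strand: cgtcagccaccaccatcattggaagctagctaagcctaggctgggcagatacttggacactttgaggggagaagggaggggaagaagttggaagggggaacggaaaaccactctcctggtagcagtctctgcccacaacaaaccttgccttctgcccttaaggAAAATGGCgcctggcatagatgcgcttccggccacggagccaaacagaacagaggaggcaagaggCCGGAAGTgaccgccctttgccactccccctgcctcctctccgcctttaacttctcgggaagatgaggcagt
OPA1 promoter window, chr3:193592958-193593257, plus strand: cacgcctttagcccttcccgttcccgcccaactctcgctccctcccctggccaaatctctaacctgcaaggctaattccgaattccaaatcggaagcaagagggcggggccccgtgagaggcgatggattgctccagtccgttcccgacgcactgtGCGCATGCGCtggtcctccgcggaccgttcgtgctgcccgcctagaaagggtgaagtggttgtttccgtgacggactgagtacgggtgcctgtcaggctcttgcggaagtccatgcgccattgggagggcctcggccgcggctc
TFAM promoter window, chr10:58385160-58385459, plus strand: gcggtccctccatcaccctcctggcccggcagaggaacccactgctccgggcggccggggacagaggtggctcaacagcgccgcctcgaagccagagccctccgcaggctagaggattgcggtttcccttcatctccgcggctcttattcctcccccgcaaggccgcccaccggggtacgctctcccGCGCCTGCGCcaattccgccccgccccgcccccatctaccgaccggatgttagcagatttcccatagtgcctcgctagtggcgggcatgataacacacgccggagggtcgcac
The motifs, chosen with the sequences in view, were a NRF1 form of 10 letters (as in the TFAM match below, with the fifth letter free), CCGGAAGT for GABPA and other ETS factors, AANATGGC for YY1, TGACNNNGC for NRF2 (the antioxidant response element), TGACGT for CREB and AAGGTCA for estrogen-related receptors. GCGCATGCGC of OPA1, an exact palindrome of the NRF1 form, spans 94 to 85 bases before the start, and GCGCCTGCGC of TFAM spans 63 to 54 bases before it. Among all 35116 RefSeq windows, 5.78% hold this NRF1 form. MFN1 holds an AAAATGGC and, closer to its start, a CCGGAAGT, motifs present in 6.58% and 4.14% of windows. MFN2 holds TGACGT across its start, a motif of 7.98% of windows. None of these 4 windows holds the NRF2 motif, which 13.3% of windows hold, nor the estrogen-related receptor motif (3.92%). These matches are letters in a window and were not tested as binding sites. The OPA1 and TFAM windows both hold the NRF1 motif, and OPA1 fell and TFAM rose. A part of NRF1 in either change was not tested.

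Of the other members, the table has no window for NRF1. The PPRC1 window, whose start is 46 bases from that of the count table, holds the YY1 and the NRF2 motif, and the DNM1L window, 101 bases away, holds none of the 6. The windows of PPARGC1A, PPARGC1B and FIS1 have starts at least 7235 bases from the gene start in the count table. PPARGC1A has a nearer window with none of the 6 motifs and a farther, upstream window with the NRF2 motif, as GCGGAGTCA. The FIS1 window holds CCGGAAGT, and the PPARGC1B window holds none of the 6. Shares of all windows with these motifs are those given above, and these matches too were not tested as binding sites.

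Both fission genes fell, with smaller fitted changes than MFN1 and OPA1; the difference between genes was not tested. DNM1L (ENSG00000087470, chr12:32679200-32745650, plus strand) encodes DRP1, the dynamin-related GTPase that constricts mitochondria. It stood at 115, 113 and 119.7 CPM in the treated libraries, against 150.2, 149.5 and 155 CPM in the DMSO libraries. The groups did not overlap, with a log2 change of -0.39 (SE 0.051, edgeR adjusted p = 1.00e-09). GENCODE v29 lists 30 transcripts for DNM1L, which a count per gene does not separate. The TPM ratio of DNM1L to OPA1 was 1.48, 1.57 and 1.64 in the treated libraries and 1.29, 1.33 and 1.30 in the DMSO libraries.

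FIS1 (ENSG00000214253, chr7:101239458-101252316, minus strand) encodes a small tail-anchored outer-membrane protein that recruits the dynamin in yeast; in mammals its part in fission is debated. It had 27.2, 27.4 and 24.6 CPM in the treated libraries, against 34.6, 36.6 and 35.2 CPM in the DMSO libraries. Treated libraries were all lower than the DMSO libraries. The log2 change was -0.43 (SE 0.077, edgeR adjusted p = 2.52e-06), and the 95% intervals of FIS1 (-0.58 to -0.27) and DNM1L (-0.49 to -0.29) overlapped.

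Ordered by level per exon length, MFN2 led the set in both groups, at 333 ± 9.16 TPM in treated and 279 ± 12.4 TPM in DMSO cells (SD, n = 3 each). In treated cells TFAM came next at 87.4 TPM, then DNM1L at 71.3, FIS1 at 65.8, PPRC1 at 54.4, OPA1 at 45.7, MFN1 at 37.9 and NRF1 at 15.6 TPM. No 2 neighbours in that order overlapped in range. In DMSO cells the levels of DNM1L (88.8), FIS1 (84.4), PPRC1 (79.5), TFAM (69.3), OPA1 (68.0), MFN1 (63.2) and NRF1 (25.5 TPM) followed MFN2. There, FIS1 overlapped PPRC1 in range, and TFAM overlapped OPA1. PPARGC1B and PPARGC1A were last in both groups, PPARGC1B at 1.03 TPM in treated and 0.917 TPM in DMSO cells. The length used is that of all annotated exons, so genes with many long, unused exons read low on this scale.

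**Figure D3:**
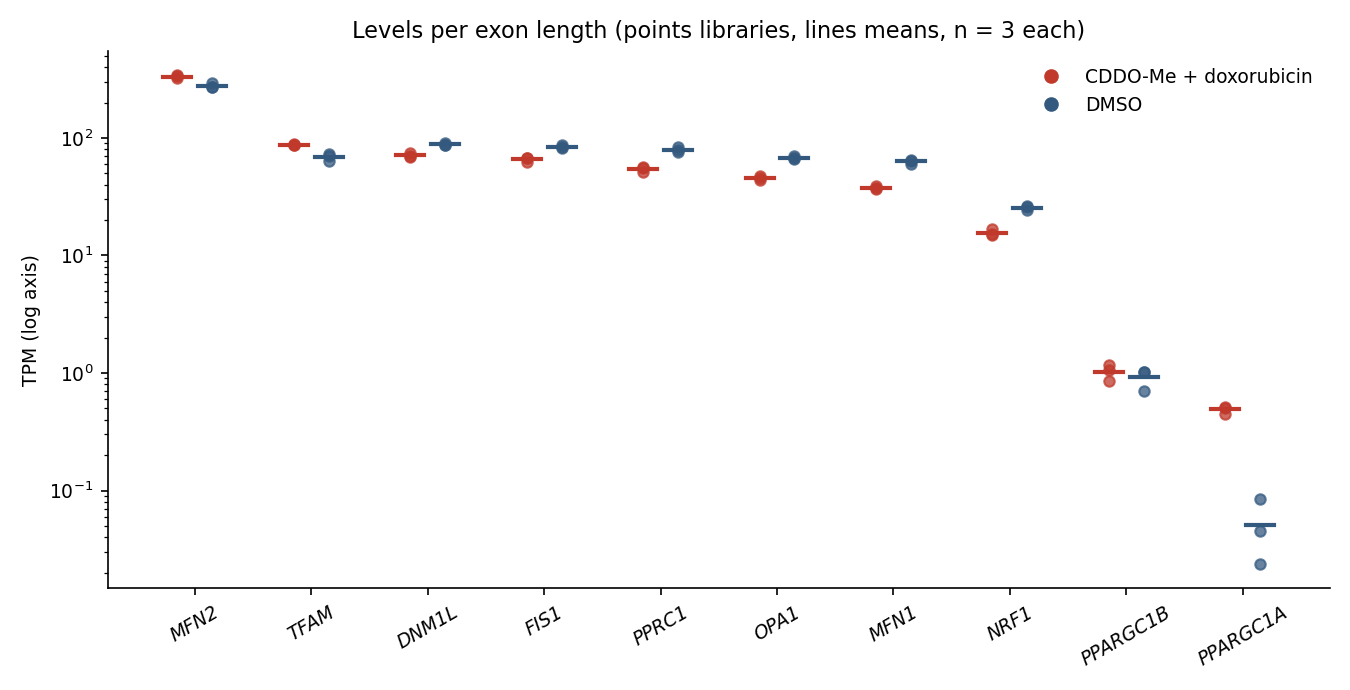
TPM on a log axis, treated libraries (red) left of DMSO libraries (blue) for each gene, with lines at the means. MFN2 stands alone at the top, and PPARGC1A in DMSO libraries at the bottom, at 0.0237 to 0.0856 TPM.

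Around the 10 genes, 8 lists of related genes were counted by the same test. Their balance of rises and falls depended on the scaling: with TMM 50.8% of all calls were higher, with total counts 63.8%, and with total counts rises outnumbered falls in all 8 lists. Counts below are with TMM. They are to be read beside the shares over all tested genes, of which 63.5% were called, 32.3% higher and 31.2% lower.

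Partners and upstream regulators of the coactivators moved in both directions. Of 28 tested, 13 rose, 9 fell and 6 were not called; the median log2 change was 0.14. Of the 13 rises, 2 were genes that reached the filter's minimum count in every library of the treated group only, ESRRG and PERM1. Being tested already required higher treated counts for ESRRG (3, 5 and 4 DMSO counts), but not for PERM1 (19, 16 and 9 DMSO counts). These had the largest fitted rises: ESRRG, an estrogen-related receptor gene of oxidative muscle, had 54 counts in treated and 12 in DMSO libraries, a ratio of 3.79 (2.002 to 7.78, exact 95% binomial interval), and PERM1 is a muscle regulator of PGC-1 and these receptors (2.17 ± 0.67 CPM in treated and 0.849 ± 0.319 CPM in DMSO cells, log2 change 1.36). ESRRA, the abundant receptor of this kind, rose by 0.32 (SE 0.081) on the log2 scale. GABPA, the DNA-binding subunit of GABP, rose by 0.26 (SE 0.057). The largest falls were in PRKAG2, a regulatory subunit of the energy sensor AMPK that is known for its role in heart muscle (22.4 ± 1.15 CPM in treated and 44.6 ± 1.16 CPM in DMSO cells, log2 change -0.99), and MYC, a growth-promoting transcription factor (39.5 ± 2.02 CPM in treated and 76.9 ± 3.16 CPM in DMSO cells, -0.96). The member not tested was ESRRB, named after its values were seen, with 16 counts in treated and 0 in DMSO libraries.

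Genes of mitochondrial DNA transcription and replication moved both ways. Of 28 tested, 7 rose, 10 fell and 11 were not called; the median log2 change was -0.03. While TFAM rose, its partners at the mitochondrial promoter fell: POLRMT, the mitochondrial RNA polymerase (44.0 ± 2.48 CPM in treated and 64.0 ± 5.07 CPM in DMSO cells, log2 change -0.54, SE 0.066), and TFB2M, which opens the promoter with it (27.4 ± 1.22 CPM in treated and 39.5 ± 1.79 CPM in DMSO cells, -0.53, SE 0.075). RRM2B, a p53-inducible ribonucleotide reductase subunit that supplies nucleotides for mitochondrial DNA, rose most (195 ± 8.06 CPM in treated and 54.6 ± 3.58 CPM in DMSO cells, log2 change 1.84). MGME1, a mitochondrial DNA exonuclease, rose by 0.82. PNPT1, a mitochondrial RNA-degrading enzyme (-0.63), and CLPP, a matrix protease (-0.54 on the log2 scale), fell most.

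Among fission adaptors and effectors, 5 of 21 rose, 11 fell and 5 were not called; the median log2 change was -0.13. MFF, the main outer-membrane receptor for DNM1L in mammals, rose while DNM1L itself fell (93.3 ± 1.27 CPM in treated and 75.1 ± 3.66 CPM in DMSO cells, log2 change 0.31, SE 0.056). MIEF2, another receptor, rose by 0.28 (SE 0.088, edgeR adjusted p = 0.00424) and was not called without DMSO replicate 3 (0.18, edgeR adjusted p = 0.0878). Its paralogue MIEF1 had a log2 change of 0.06 (95% interval -0.05 to 0.16) and was not called, except with scaling by total counts (0.18, edgeR adjusted p = 0.00201). INF2, a formin that builds actin at fission sites, rose by 0.30. GDAP1, a fission factor of nerve, fell by 0.77 on the log2 scale. MTFP1, an inner-membrane fission protein, had a log2 change of -0.72 (edgeR adjusted p = 0.0345) that 7 of 14 alternatives did not call (the highest adjusted p was 0.158, without DMSO replicate 1), and 52.5% of its exon bases lie in exons of another gene. The count of risers was 3 without treated replicate 2, DMSO replicate 1 or DMSO replicate 2.

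OPA1 processing and fusion modifiers gave more falls than rises. Of 19 tested, 2 rose, 8 fell and 9 were not called, with a median of -0.15; with scaling by total counts, 7 rose and 2 fell. The proteases that cut OPA1 gave small values. OMA1 had a log2 change of 0.01 (95% interval -0.24 to 0.26, not called). YME1L1 fell by 0.15 (SE 0.047), but 2 of 14 alternatives did not call it, among them total-count scaling (-0.02). PLD6, a mitochondrial phospholipase that promotes fusion, rose most (14.5 ± 0.698 CPM in treated and 3.37 ± 0.319 CPM in DMSO cells, log2 change 2.10, SE 0.14); 24.5% of its exon bases are shared with other genes. CHCHD10, an intermembrane-space protein, rose by 0.43. PHB2, the prohibitin that scaffolds OPA1 processing (-0.35), and the protease subunit AFG3L2 (-0.28 on the log2 scale) fell.

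Of 12 genes for cristae organisation, 4 rose, 6 fell and 2 were not called (median log2 change -0.14). MTX3 (0.51) and the MICOS subunit APOO (0.46) rose most, and the MICOS subunits CHCHD6 (-0.88) and MICOS13 (-0.77) fell most. Mitophagy genes gave 5 rises, 4 falls and 6 without a call among 15 tested (median -0.06), with 3 rises without DMSO replicate 2. The autophagy receptors OPTN (164 ± 7.74 CPM in treated and 103 ± 4.43 CPM in DMSO cells, log2 change 0.67) and NBR1 (0.52) rose most, and VCP, the segregase that removes mitofusins from the membrane, fell (-0.36). PINK1, the kinase that marks damaged mitochondria, had a log2 change of -0.06 (95% interval -0.19 to 0.07) and was not called; 41.7% of its exon bases are shared with other genes, an antisense gene among them.

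Genes that move mitochondria on microtubules split evenly, 5 up, 5 down and 2 not called of 12 (median 0.06). KIF5C, a neuronal kinesin heavy chain, rose most (log2 change 1.19), from a low level. It had 2.92 ± 0.301 CPM in treated and 1.28 ± 0.236 CPM in DMSO cells. Next was ARMCX3 (116 ± 4.76 CPM in treated and 64.1 ± 0.376 CPM in DMSO cells, log2 change 0.85). KIF5A, a paralogue of KIF5C (-0.83), and RHOT1, the outer-membrane adaptor Miro1 (24.5 CPM in treated and 40.0 CPM in DMSO cells, -0.71), fell most. In protein import, 7 of 34 tested genes rose, 13 fell and 14 were not called (median -0.07); scaling by total counts gave 11 rises and 7 falls. GRPEL2, a co-chaperone of the matrix Hsp70 (0.93), and TOMM34 (0.49) rose most. TIMM13, a small intermembrane chaperone (-0.99), and TOMM40L (-0.86 on the log2 scale) fell most; 28.9% and 20.2% of their exon bases are shared with other genes. TOMM6 had 0 counts in every library and shares 100% of its exon bases with other genes.

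**Figure D4:**
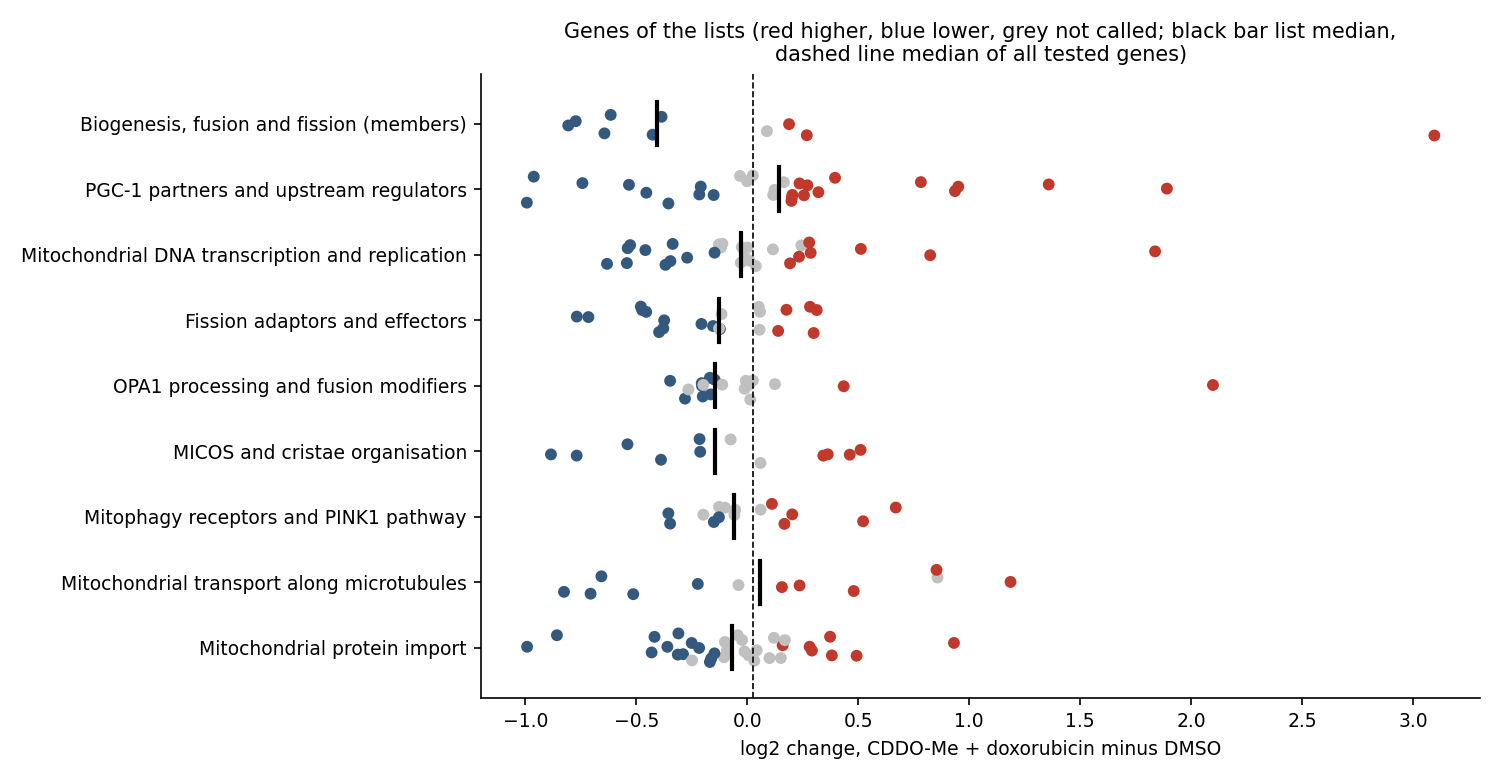
Each point is 1 tested gene at its log2 change (CDDO-Me and doxorubicin minus DMSO), red if higher, blue if lower and grey if not called; black bars are list medians and the dashed line the median of all tested genes, 0.02. The 10 biogenesis, fusion and fission genes have the lowest median, -0.41, and list medians of the others lie between -0.15 and 0.14.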

How the data were processed

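Polyadenylated RNA of 6 AC16 libraries was made into unstranded libraries, per the labels' protocols. The authors deposited whole-number counts per Ensembl gene with exon lengths in bases, per the file header. Tools listed in the submitters' processing notes are featureCounts, Subread, STAR and SAMtools, with the build hg38 (GRCh38). Versions, annotation release and the treatment of reads in shared exons are not given in the sources used here. Symbols were found for 57717 of 58299 identifiers. Sequences came from RefSeq (GRCh38.p14).

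Libraries were grouped by their titles. Genes were filtered with filterByExpr (minimum count 10), scaled by TMM and tested with edgeR 4.0.16 (R 4.3.3). SE is the size of the log2 change over the square root of F, with a prior count of 0.125. TPM used the table's lengths and no TMM factors. Exon sharing used bedtools 2.31.1. The test was tried on simulated data. Replicates differed beyond sampling noise (chi-square over degrees of freedom 3.00 to 4.01).

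Members and lists were chosen with earlier results of these data known. Named were the members, the 2 largest called rises and falls of each list, and 11 fixed genes, 1 of which is not reported here. Alternatives were other scalings, filters, DESeq2 1.42.0, limma-voom (limma 3.58.1), a replicate block, libraries left out, a stricter threshold and glmTreat.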

Additional observations from a re-analysis of the deposited data

How the results depend on the processing

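Under 14 alternatives (3 scalings, 2 filters, 2 other tests, a replicate block and 6 fits with 1 library left out) 9 members were called each time, 3 higher and 6 lower, and an adjusted p below 0.01 also gave 9. Tested against a 1.5-fold change, 3 of the 10 members and 2993 of all genes were called instead of 9 and 9893, since that test asks for a larger change. PPARGC1B was called in none of the 14, with log2 changes of -0.08 to 0.22. Leaving out 1 library gave 9283 to 9695 calls over all genes, of them 4709 to 4960 higher and 4574 to 4735 lower. With total-count scaling the median log2 change over all genes was 0.15, against 0.02 with TMM, and 63.8% of calls were higher, against 50.8%. The log2 changes of MFN2 and TFAM were then 0.32 and 0.40, and those of DNM1L and FIS1 -0.26 and -0.30. Of 559 values of the other named genes under the alternatives, 548 kept direction and side of the threshold, 10 were no longer called and 1 became called. With total counts the lists had 15 rises and 6 falls (coactivator partners), 10 and 9 (mitochondrial DNA), 7 and 6 (fission), 5 and 4 (cristae), 6 and 2 (mitophagy) and 6 and 4 (transport). Upper-quartile factors gave 4 falls for OPA1 processing, 2 for mitophagy and 8 for import. Without a filter, 3 fission genes rose. The replicate numbers did not pair the libraries (correlations of same-numbered deviations -0.04, -0.02 and -0.01); with the replicate block 9653 genes were called and the same 9 members. The counts of PPARGC1A (7 in DMSO libraries) limit the precision of its fold.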
